A study of Mus musculus with 24 samples.

Results

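The HoxB cluster is a run of homeobox genes on mouse chromosome 11. Its 10 protein-coding genes, Hoxb1 to Hoxb9 and Hoxb13, were followed here while embryonic stem cells were differentiated. They were taken by gene symbol and made up 10 of the 35591 genes in a table of read counts and 10 of the 39 genes in a table of Hox expression levels.

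Hox genes encode transcription factors that bind DNA through a homeodomain and give cells along the head-to-tail axis of the embryo their regional identity. Genes at the 3′ end of a cluster, such as Hoxb1, are usually switched on earlier and more anteriorly than genes towards the 5′ end, such as Hoxb9, a relation known as collinearity. In the caudal embryo, Wnt signalling and the CDX transcription factors act on the clusters, and retinoic acid acts on the genes at the 3′ end.

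The 24 libraries were made from poly(A) RNA of 6 primary male mouse embryonic stem cell (mESC) lines. Of these, 3 lines were labelled Smchd1[fl/+] (wt below) and 3 were labelled Smchd1[del/+] (het below), and each line was sampled at day 0, day 2, day 2.5 and day 3, which gave 8 groups of 3. The product of Smchd1 binds chromatin and helps to keep genes silent. All lines were F1 hybrids of a Castaneus mother with wild-type Smchd1 and a C57BL/6 father that carried a deleted allele, a floxed allele and an MMTV-Cre transgene, so het lines lacked the working paternal copy and wt lines carried a floxed copy. Each line came from 1 blastocyst, and whether a line inherited the Cre transgene was not given in the sources used here. Cells at day 0 were kept in medium with LIF, were then moved to N2B27 medium with bFGF, and received the Wnt pathway activator CHIR99021 at day 2, towards neuromesodermal progenitors, which give rise to spinal cord and trunk mesoderm. The comparison of het and wt lines addressed whether the embryo's own dose of Smchd1 alters Hox expression, as distinct from the protein stored in the oocyte.

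Library totals ran from 7.10 to 20.8 M (mega) counts, and 3 counts, the smallest level used here as detected, equalled 0.144 to 0.422 counts per M (CPM) of these totals. The smallest library was wt day 2.5 line 2. Smchd1 itself had 131 to 149 CPM in wt and 89.4 to 101 CPM in het at day 0, and the lines of the genotypes did not overlap on any of the 4 days. In wt, 6 pluripotency markers summed to 2472 ± 106 CPM at day 0 and to 347 ± 68.7 CPM at day 3 (SD, n = 3). A list of 6 caudal epiblast and neuromesodermal markers, Sox2 among them, summed to 245 ± 35.6 CPM at day 0. This sum was 71.8 ± 21.3 CPM at day 2 and 925 ± 304 CPM at day 2.5. In that last step 5 of the 6 were called higher and 1 lower in each genotype. Of all tested genes, 14.6% in wt and 21.8% in het were called higher in it. A list of 19 markers of endoderm and extraembryonic endoderm, called endoderm markers below, reached 5566 to 15947 CPM in wt from day 2 on. The 4 paraxial mesoderm markers reached at most 22.3 CPM in any library.

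In GRCm38, Hoxb1 lies at chr11:96365752-96368256 and Hoxb9 at chr11:96271457-96276595, both on the + strand, and the run from Hoxb1 to Hoxb9 spans 96.8 kb. Neighbouring genes in this run are 1.31 to 12.1 kb apart. Hoxb13 lies apart from the run, at chr11:96194316-96197447, with a gap of 74.0 kb to Hoxb9. The exons of 3 members overlap antisense RNAs. Antisense Hoxb3os covers 52.9% of the exon bases of Hoxb3 and 27.3% of those of Hoxb2, and antisense Hoxb5os covers 3.59% of those of Hoxb5. For 121 genes, every exon lies inside an exon of a gene on the opposite strand. The count of such an inner gene was not above that of the outer gene in 2904 of 2904 values. The counts thus behaved as if taken without regard to strand. Reads of Hoxb3os and of Hoxb2 or Hoxb3 over their shared exons can therefore not be told apart.

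RefSeq promoter sequence (GRCm38.p6) was at hand for 3 of the 10 members, and the 250 bases before the RefSeq start are shown for a gene near each end of the run, Hoxb1 and Hoxb8. For Hoxb1 that start lies 6 bases inside the gene as placed above, so the last 6 bases of its window are within it. The windows are chr11:96365508-96365757 for Hoxb1 and chr11:96281655-96281904 for Hoxb8, both on the + strand. Capitals mark matches on either strand to TGATNNAT, a core shared by sites of PBX-HOX protein pairs, and to TTTATG, a core of CDX sites.
Hoxb1: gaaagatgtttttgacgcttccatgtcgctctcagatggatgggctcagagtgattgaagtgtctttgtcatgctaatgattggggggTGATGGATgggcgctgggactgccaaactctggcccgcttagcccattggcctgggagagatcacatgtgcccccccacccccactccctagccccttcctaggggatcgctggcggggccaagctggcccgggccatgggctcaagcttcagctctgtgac
Hoxb8: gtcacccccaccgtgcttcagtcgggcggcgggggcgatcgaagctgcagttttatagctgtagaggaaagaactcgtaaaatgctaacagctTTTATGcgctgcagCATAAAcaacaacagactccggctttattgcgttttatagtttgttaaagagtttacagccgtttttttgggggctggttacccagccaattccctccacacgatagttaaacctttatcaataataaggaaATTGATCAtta
The Hoxb1 window held 1 match to TGATNNAT, 162 bases before the RefSeq start, and the Hoxb8 window held 2 matches to TTTATG and 1 to TGATNNAT. Over 32851 promoters of the same length, 7.68% held TGATNNAT and 10.8% held TTTATG. A TCF-LEF core, CTTTGA, was in 13.8% of them. It was in none of the Hoxb1, Hoxb4 and Hoxb8 windows, and the Hoxb4 window held none of the 3 motifs. The motifs and windows were chosen after the sequences had been seen, none overlapped another in these windows, and a match is a description of letters only.

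At day 0 the cluster was close to silent. The 10 genes together had 4 to 32 counts per library, and no single value exceeded 18 counts, which was Hoxb4 in wt line 2. Hoxb5, a gene of the middle of the cluster, had 0 counts in all 6 day 0 libraries. At this depth no order of the genes could be read, and the ranges of neighbours in the order of mean levels overlapped for 9 of 9 pairs in wt and 8 of 9 in het. Levels are compared between genes as log2 RPKM, the log2 of reads per kilobase of transcript per M reads, in which a count of 0 was listed by the authors at the value of 0.9 counts.

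At day 2, before the Wnt activator, Hoxb1 was higher than at day 0 in wt. Hoxb1, whose product patterns the hindbrain, had 0, 1 and 5 counts in wt lines 1, 2 and 3 at day 0 and 57, 42 and 41 counts at day 2. All the day 2 values lay above all the day 0 values, and the log2 fold change was 4.09 (adjusted p = 0.00351, SE 0.97). Of the 10 members, 3 passed the low-count filter in this step in wt, and Hoxb1 was the 1 called higher, where 22.4% of all tested genes were called higher. It remained called without each line in turn, with a log2 fold change of 3.38 without line 1. Without line 3 there was 1 count at day 0, and the ratio of CPM by library totals was 87.3, with an exact 95% counting interval from 15.3 to 3484.

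In het, no member passed the low-count filter between day 0 and day 2, so none could be called, while 28.0% of all tested genes were called higher. Without the filter beyond 1 count, Hoxb3 was called, as were 8957 of 22292 genes in all. Hoxb1 had 30, 18 and 3 counts in het lines 1, 2 and 3 at day 2, against 3, 5 and 7 at day 0. The low value of line 3 lay inside the day 0 range. Hoxb3, which acts in the hindbrain and neck, had 0 counts in all 3 het lines at day 0 and 13, 13 and 3 counts at day 2. Over the group this was at least 10.1-fold higher, with the day 0 level set to 3 counts over the group. In a single fit of all 24 libraries, 3 members were called in wt (Hoxb1, Hoxb2 and Hoxb3) and the same 3 in het. Over all genes, that fit called 4239 of 17543 higher in wt and 4092 of 17543 higher in het.

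**Figure D1:**
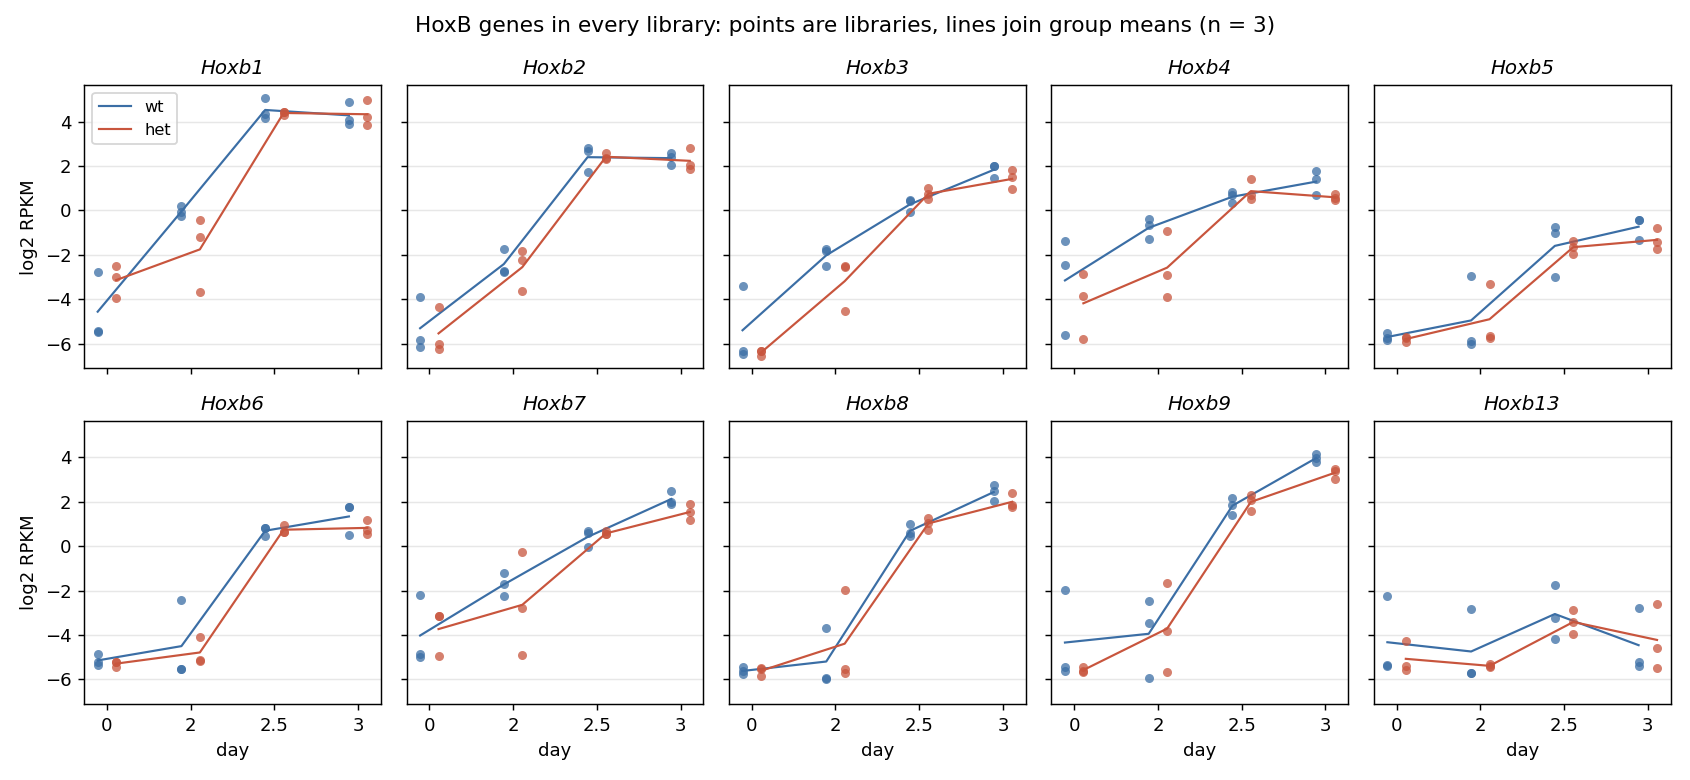
Deposited log2 RPKM (vertical axis) of each of the 10 HoxB genes by day (horizontal axis, days evenly spaced and not to scale), with points for single libraries and lines through the means of 3 wt (blue) and 3 het (red) lines. The changes of Hoxb1 and Hoxb2 from day 2.5 to day 3 did not pass the test, Hoxb9 went from 1.82 to 3.97 in wt and from 1.99 to 3.30 in het, and Hoxb13 had 0 to 12 counts in every library.

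After the Wnt activator, nearly the whole run of genes rose within the step from day 2 to day 2.5. In wt, 8 of the 10 members were called higher, where 14.6% of all tested genes were, and in het 8 of the 10 were called higher, where 21.8% were. No member was called lower. The 9 genes from Hoxb1 to Hoxb9 had a higher log2 RPKM at day 2.5 than at day 2 in each line, in 27 of 27 line values in wt and 27 of 27 in het. In bulk RNA, more cells that express a gene and more RNA per cell cannot be told apart.

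Hoxb1 had the highest level of the cluster. In wt lines 1, 2 and 3 it was at 0.21, -0.09 and -0.27 log2 RPKM at day 2 and at 5.07, 4.35 and 4.15 at day 2.5. In het it was at -0.43, -1.19 and -3.65 at day 2 and at 4.30, 4.41 and 4.45 at day 2.5. The days were far apart in both genotypes, and the het lines, which differed widely at day 2, lay close together at day 2.5. The log2 fold change was 4.56 (adjusted p = 1.95e-07, SE 0.27) in wt and 5.54 (adjusted p = 1.45e-08, SE 0.31) in het, or 6.27 in het without line 1.

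Hoxb2, which like Hoxb1 patterns the hindbrain, rose by a like amount, from 11, 20 and 11 counts to 403, 179 and 198 counts in wt. Its log2 fold change was 4.75 (adjusted p = 3.70e-06, SE 0.39) in wt and 4.73 (adjusted p = 7.18e-08, SE 0.31) in het. Hoxb3 and Hoxb4, whose products act in the hindbrain and neck, rose less in wt, by 2.22 (adjusted p = 0.00176, SE 0.42) and 1.31 (adjusted p = 0.0334, SE 0.42) on the log2 scale. In het the same genes rose by 3.60 (adjusted p = 1.75e-05, SE 0.44) and 2.91 (adjusted p = 0.00126, SE 0.60). The wt call of Hoxb4 was lost without line 2 or without line 3 (adjusted p = 0.143 and 0.278) and in the single fit of all libraries (adjusted p = 0.0868), and the het change of Hoxb4 was 2.30 without line 1 and 4.32 without line 3.

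The genes of the middle and 5′ part of the run, whose products pattern the trunk, rose from counts near 0. Hoxb6 and Hoxb8 had no counts in wt lines 1 and 3 at day 2 and 7 and 4 counts in line 2, and reached 25 to 63 and 29 to 97 counts at day 2.5. Their fitted log2 fold changes in wt, 4.66 and 5.85, were called with and without line 2 and were 4.03 and 5.11 without line 1. Without line 2 the day 2 group was at 0, and the day 2.5 level was at least 43.3-fold and at least 63.0-fold higher, against 3 counts over the group. Hoxb9 had 5, 9 and 0 counts in wt at day 2 and 214, 69 and 118 counts at day 2.5, a log2 fold change of 5.26 (adjusted p = 6.74e-05, SE 0.61), or 6.16 without line 2. In het, Hoxb9 went from 14, 0 and 3 counts to 264, 149 and 221, a log2 fold change of 4.89 (adjusted p = 1.36e-05, SE 0.57). Without line 1, with 3 counts left at day 2, the ratio was 106 (counting interval 36.0 to 516).

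In het, Hoxb6 and Hoxb8 rose by 5.60 and 4.41 on the log2 scale, from 0 to 2 counts and 0 to 11 counts per library at day 2. The 3 counts of Hoxb6 at day 2 gave a ratio of 56.8 (counting interval 19.2 to 278), which was 116 (20.5 to 4612) without line 1 and 36.3 (12.1 to 179) without line 3. The Hoxb8 change was 3.81 without line 1. Without line 3, which held the 11 counts, 1 count was left and the ratio was 195 (34.6 to 7729). Hoxb5 was called in het, from 0, 5 and 0 counts to 15, 17 and 22, with an adjusted p of 0.0279. Its log2 fold change of 3.06 was 2.66 without line 1 and 2.38 without line 3. Without line 2, which held the 5 counts, it was called and at least 10.1-fold higher at day 2.5. The call was lost without line 1 or line 3 (adjusted p = 0.127 and 0.132) and with counts thinned to the smallest total. In wt Hoxb5 did not pass the filter for this step, and it was called there in the single fit of all 24 libraries.

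Hoxb7 rose by 2.04 on the log2 scale in wt (adjusted p = 0.0264, SE 0.63) and had a change of 2.12 in het (adjusted p = 0.0580, SE 0.86), which did not pass. With the line as a block the calls changed places, to an adjusted p of 0.0533 in wt and 0.0379 in het. The wt call was also lost without each of the 3 lines, with adjusted p values of 0.0687 to 0.146, and the het change passed under 6 of its 10 alternatives, among them without line 3, where it was 4.23, while without line 1 it was 1.499 (adjusted p = 0.201). Hoxb13, the most 5′ gene, which acts in the tail and the urogenital tract, had 0 to 12 counts in every library of the study and passed the filter in no comparison. In het it had 3, 4 and 6 counts at day 2.5 after 0 in all 3 lines at day 2, at least 3.71-fold higher over the group.

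Between day 2.5 and day 3, Hoxb7, Hoxb8 and Hoxb9 rose in both genotypes, while the change of Hoxb1 and of Hoxb2 did not pass. In wt, 4 of the 10 members were called higher (Hoxb3, Hoxb7, Hoxb8 and Hoxb9), where 8.99% of all tested genes were. In het, 3 of the 10 were called higher (Hoxb7, Hoxb8 and Hoxb9), where 13.8% were. No member was called lower in this step. Hoxb13, which was not tested, had 12, 0 and 4 counts in wt lines 1, 2 and 3 at day 2.5 and 7, 0 and 1 at day 3, and in het 3, 4 and 6 and then 7, 2 and 1.

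Hoxb9 changed the most. In wt lines 1, 2 and 3 it was at 2.18, 1.87 and 1.41 log2 RPKM at day 2.5 and at 4.14, 3.98 and 3.77 at day 3. In het it was at 2.30, 1.59 and 2.08 at day 2.5 and at 3.49, 3.04 and 3.37 at day 3. No day 3 value overlapped the day 2.5 values in either genotype, and the log2 fold change was 2.13 (adjusted p = 0.000316, SE 0.20) in wt and 1.24 (adjusted p = 0.000684, SE 0.19) in het.

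Its neighbour Hoxb8 was at 1.01, 0.59 and 0.47 log2 RPKM at day 2.5 and at 2.76, 2.50 and 2.05 at day 3 in wt, and at 1.28, 0.73 and 1.06 and then 2.41, 1.74 and 1.84 in het. The days did not overlap in either genotype. The log2 fold change was 1.76 (adjusted p = 0.00199, SE 0.25) in wt and 0.93 (adjusted p = 0.00955, SE 0.23) in het. Hoxb7 rose by 1.74 (adjusted p = 0.00627, SE 0.33) in wt and 0.94 (adjusted p = 0.0211, SE 0.27) in het.

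Hoxb3 was at 0.47, 0.43 and -0.09 log2 RPKM at day 2.5 in wt and at 2.02, 2.00 and 1.46 at day 3, a change of 1.55 to 1.57 in each of the 3 lines. Its log2 fold change was 1.58 (adjusted p = 0.00277, SE 0.25). In het it was at 1.01, 0.74 and 0.49 and then at 1.81, 0.95 and 1.49, so that the days overlapped. The het log2 fold change of 0.65 (adjusted p = 0.0524, SE 0.23) did not pass. It passed under 6 of its 10 alternatives, among them the line as a block (adjusted p = 0.0264). Of the exon bases of Hoxb3, 52.9% are shared with Hoxb3os.

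Hoxb1 and Hoxb2 did not pass in this step. The log2 fold change of Hoxb1 was -0.22 (SE 0.27) in wt and -0.03 (SE 0.21) in het, and that of Hoxb2 was -0.08 (SE 0.26) and -0.18 (SE 0.21). Hoxb1 was lower at day 3 in 3 of 3 wt lines, by 0.18 to 0.29 log2 RPKM. Of the middle genes, Hoxb4, Hoxb5 and Hoxb6 had log2 fold changes of 0.75, 0.68 and 0.76 in wt and -0.37, 0.31 and 0.05 in het, none of which passed.

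Leaving out single lines ended several of these calls. Without line 2 in wt, whose day 2.5 library was the smallest, 0 of the 10 members were called, with adjusted p values of 0.0560 to 0.0930 for the 4 genes, while their log2 fold changes stayed at 1.54 to 2.12. Over all genes the number called fell from 2923 to 29 without that line. Hoxb7 was also lost without line 3 (adjusted p = 0.0522). In het, 1 member (Hoxb9) remained called without line 3 and also in the single fit of all 24 libraries, and Hoxb7 was lost without line 1. Over all genes, 2386 of 16014 were called without line 3 and 3380 of 17543 in the single fit.

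**Figure D2:**
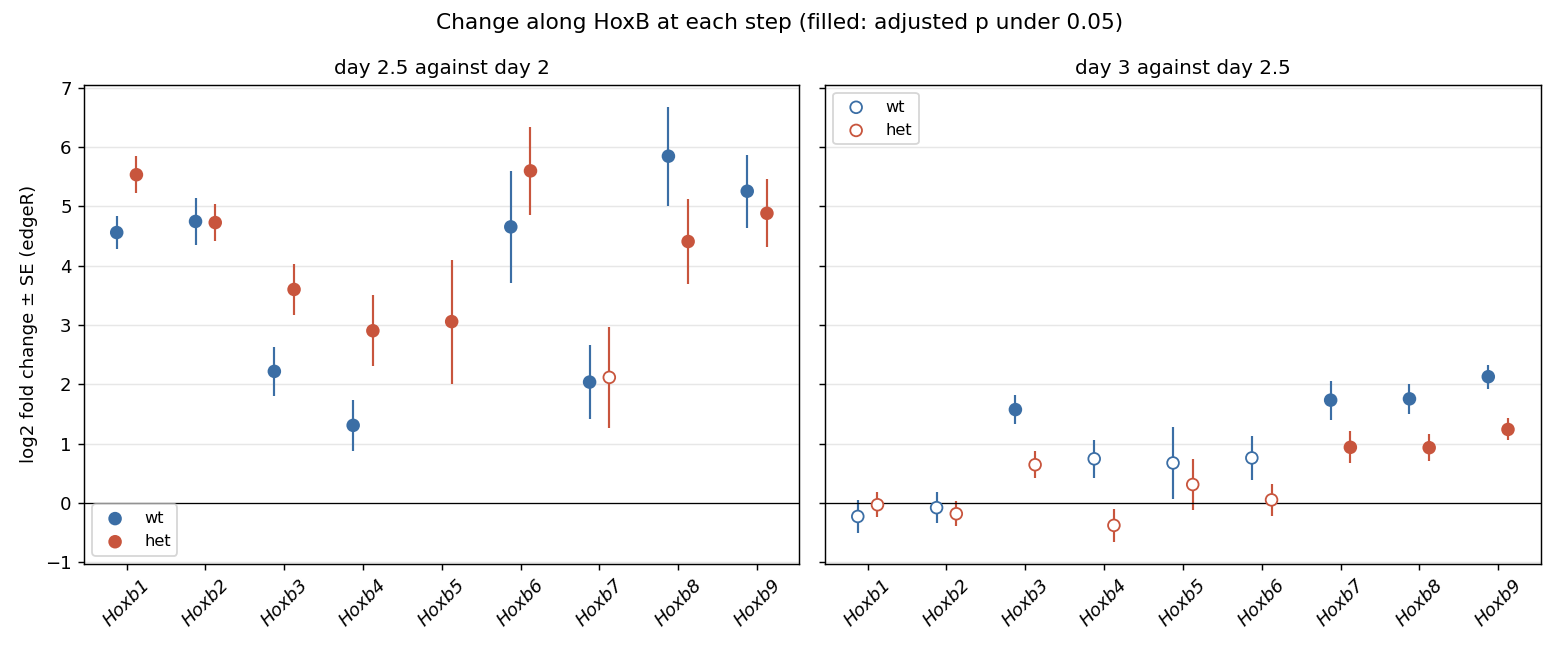
Fitted log2 fold change with its SE (vertical axis) of the 9 genes in cluster order (horizontal axis), from day 2 to day 2.5 and from day 2.5 to day 3, in wt (blue) and het (red), with filled points for an adjusted p under 0.05. In the later step the values ran from -0.22 for Hoxb1 to 2.13 for Hoxb9 in wt and from -0.37 for Hoxb4 to 1.24 for Hoxb9 in het.

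The order of the change along the cluster was described for each line by the Spearman correlation across the 9 genes between cluster order, with Hoxb1 first, and the change in log2 RPKM. Genes of 1 library share its depth and are not replicates, so no p is given. From day 2.5 to day 3 the correlation was 0.789 ± 0.042 in wt and 0.689 ± 0.173 in het (n = 3 lines, SD), and it was positive in each of the 6 lines, from 0.550 to 0.883. With Hoxb13 as a 10th gene it was 0.301 and 0.410. From day 2 to day 2.5 it was 0.239 ± 0.308 in wt and 0.122 ± 0.331 in het, with 1 line of each genotype below 0. With values under 3 counts set to that level it was of the opposite sign, -0.178 in wt and -0.389 in het.

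The same correlation with the level was -0.589 ± 0.059 at day 2, -0.256 ± 0.092 at day 2.5 and -0.017 ± 0.093 at day 3 in wt, and -0.389 ± 0.352, -0.317 ± 0.161 and -0.078 ± 0.019 in het (n = 3 lines, SD). The 3 het lines at day 2 ran from -0.717 to -0.017. At day 3 the highest mean levels were those of the genes at both ends of the run. Hoxb1 was at 4.28 ± 0.54 log2 RPKM and Hoxb9 at 3.97 ± 0.19 in wt, and their ranges overlapped. In het, Hoxb1 at 4.33 ± 0.58 lay above Hoxb9 at 3.30 ± 0.23 with no overlap (SD, n = 3).

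Between these ends, Hoxb8, Hoxb2, Hoxb7, Hoxb3, Hoxb6 and Hoxb4 followed in wt at day 3, with means from 2.44 down to 1.30 log2 RPKM, and each overlapped the next in this order. Hoxb5 lay below them at -0.73 ± 0.50 and Hoxb13 below Hoxb5 at -4.46 ± 1.46. In het the order was Hoxb2, Hoxb8, Hoxb7, Hoxb3, Hoxb6 and Hoxb4, with means from 2.23 down to 0.59, and each overlapped the next. Hoxb5 again lay below all of these, at -1.33 ± 0.47 (SD, n = 3).

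As a share of the summed RPKM of the 10 genes, Hoxb1 went from 57.8% ± 5.60 at day 2.5 to 32.9% ± 6.20 at day 3 in wt and from 53.0% ± 4.55 to 41.8% ± 4.47 in het. Hoxb9 went from 8.87% ± 0.396 to 26.3% ± 2.75 in wt and from 10.2% ± 1.98 to 20.6% ± 3.16 in het. Hoxb8 went from 4.06% ± 0.448 to 9.07% ± 0.236 in wt and from 5.18% ± 0.745 to 8.30% ± 0.617 in het (SD, n = 3). The ranges of the 3 libraries of each day were apart for Hoxb1, Hoxb8 and Hoxb9 in both genotypes.

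**Figure D3:**
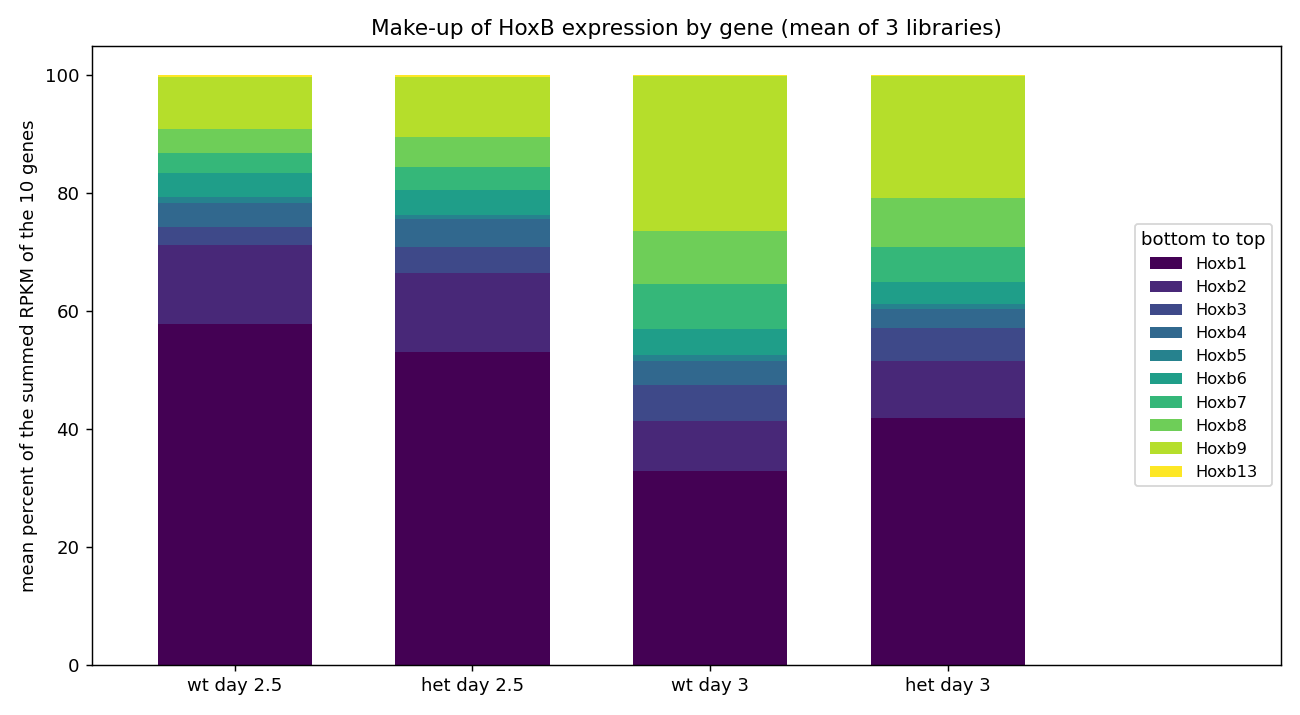
Mean share of the summed RPKM of the 10 genes (vertical axis, percent) in wt and het at day 2.5 and day 3 (horizontal axis), stacked in cluster order with Hoxb1 at the bottom. The Hoxb1 share was 57.8% at day 2.5 and 32.9% at day 3 in wt, and the Hoxb9 share was 8.87% and 26.3%.

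How much of the day 3 level a line already had at day 2.5 differed along the cluster. Hoxb1 and Hoxb2 were at 116% ± 5.03 and 103% ± 25.2 of the day 3 level in wt, and at 111% ± 44.0 and 117% ± 25.9 in het, in CPM by library totals (SD, n = 3 lines). Hoxb7, Hoxb8 and Hoxb9 were at 30.7% ± 8.29, 29.4% ± 3.69 and 22.3% ± 2.89 in wt and at 52.6% ± 11.4, 51.6% ± 5.03 and 40.8% ± 3.76 in het. Hoxb3 was at 33.4% ± 0.599 in wt and 65.3% ± 20.2 in het.

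For Hoxb3, Hoxb7, Hoxb8 and Hoxb9 the 3 het lines lay above the 3 wt lines in this share, and for the other 5 genes the lines overlapped. Of 16343 genes with at least 10 counts in these libraries and a count in each day 3 library, 5.12% had all het lines above all wt lines in the same share. The share for Hoxb9 was 25.1%, 22.5% and 19.4% in wt lines 1, 2 and 3 and 44.8%, 37.3% and 40.5% in het lines 1, 2 and 3. The test of this difference between genotypes is the interaction of genotype and step, in which none of the 10 members was called, given with its values below.

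**Figure D4:**
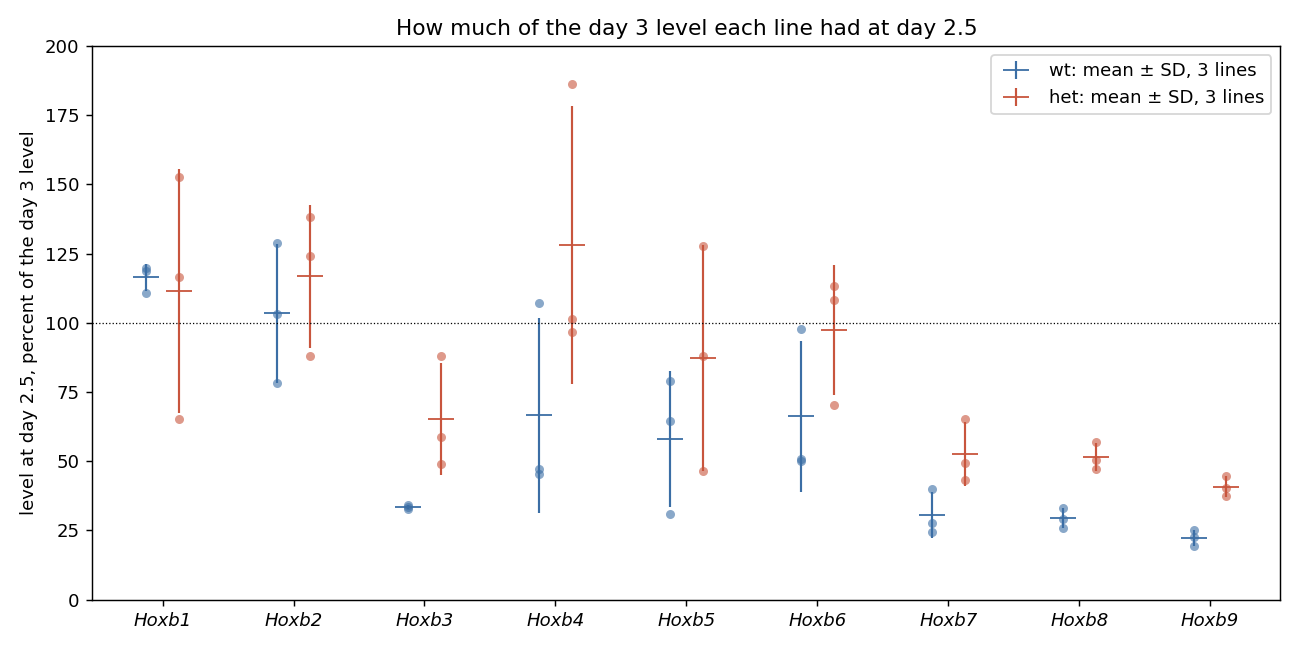
CPM at day 2.5 as a percent of that at day 3 in the same line (vertical axis) for the 9 genes in cluster order (horizontal axis), with points for single lines and the mean and SD of 3 wt (blue) and 3 het (red) lines. Hoxb7, Hoxb8 and Hoxb9 lay between 19.4% and 40.1% in the wt lines and between 37.3% and 65.3% in the het lines.

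Between het and wt lines, no member was called on any day by the edgeR test. At day 0 no member passed the filter, so none could be called, and 0.0% of all tested genes were called. At day 2, 0 of the 10 members were called, where 0.551% of all tested genes were, and no member had an unadjusted p under 0.05, as 10.2% of all tested genes did, or was called by DESeq2. The log2 fold changes of the 4 members that passed the filter were -1.20 for Hoxb1 (adjusted p = 0.600, SE 0.69), -0.03 for Hoxb2 (SE 0.84), -0.93 for Hoxb3 (SE 0.80) and -1.30 for Hoxb4 (SE 0.81). Without het line 1 the Hoxb1 value was -1.88, and without het line 3 the Hoxb4 value was -2.55. The values at day 2 were 57, 42 and 41 counts of Hoxb1 in wt and 30, 18 and 3 in het, and the lines did not overlap.

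Such a lack of overlap in log2 RPKM held at day 2 for 2 of the 10 members, Hoxb1 and Hoxb3, both lower in het, and for 14.5% of all genes with at least 10 counts in these libraries. The summed level of the endoderm markers moved in the same direction at day 2. It was 8116 to 15947 CPM in wt and 4995 to 6824 CPM in het, with 16 of 19 markers tested, 16 of 16 lower in het and 11 called, and at least 1 count for 19 of 19 markers in the wt and 18 of 19 in the het libraries. At day 0, when the cluster was close to silent, this sum was 2748 to 4265 CPM in wt and 1638 to 2250 CPM in het. Those ranges did not overlap either. On that day 15 of 16 tested markers were lower in het, 14 at an unadjusted p under 0.05 and none called by edgeR. The part of the endoderm sum in the values of Hoxb1 and Hoxb3 was not tested. The caudal markers, at 49.0 to 91.2 CPM in wt and 68.3 to 74.2 CPM in het, overlapped.

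At day 2.5, again 0 of the 10 members were called, where 0.0% of all tested genes were, and no member had an unadjusted p under 0.05, as 5.27% of all tested genes did, or was called by DESeq2. The log2 fold changes of het against wt ran from -0.27 for Hoxb5 to 0.50 for Hoxb3, with a median of 0.17 over the 9 members tested and -0.01 over all genes tested. Hoxb3 was at 0.47, 0.43 and -0.09 log2 RPKM in wt and at 1.01, 0.74 and 0.49 in het. These lines were parted by 0.02, and Hoxb3 was the 1 member of 10 whose lines did not overlap, as for 11.4% of all genes with at least 10 counts. The endoderm markers summed to 5567 to 13959 CPM in wt and 5774 to 8341 CPM in het on this day, which overlapped, with 16 of 16 tested markers lower in het, 4 at an unadjusted p under 0.05 and none called. Their part in the Hox values was not tested.

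At day 3, 0 of the 10 members were called by edgeR, where 0.00638% of all tested genes, 1 gene, was called, and 3 members (Hoxb4, Hoxb7 and Hoxb9) had an unadjusted p under 0.05, as did 9.13% of all tested genes. DESeq2 called 1 member, Hoxb9. The median log2 fold change of het against wt was -0.61 over the 9 members tested and -0.00053 over all genes tested. The values were 0.03 for Hoxb1 (SE 0.28) and -0.11 for Hoxb2 (SE 0.23), and from -0.42 to -0.79 for the 7 genes from Hoxb3 to Hoxb9.

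Hoxb9 had 985, 692 and 595 counts in wt and 564, 455 and 539 counts in het at day 3, in libraries of 16.0 to 20.8 M counts. In log2 RPKM these were 4.14, 3.98 and 3.77 in wt and 3.49, 3.04 and 3.37 in het, so every het line lay below every wt line. This held for 1 of the 10 members, Hoxb9, and for 13.5% of all genes with at least 10 counts. The log2 fold change was -0.69 (SE 0.14), with an unadjusted p of 0.000338 and an adjusted p of 0.221 by edgeR. It was called by DESeq2 (adjusted p = 0.00353), without the filter beyond 1 count (adjusted p = 0.00191) and with the line number as a block (adjusted p = 0.0441), although lines of the 2 genotypes share no more than their number. In these 3 settings 116, 274 and 100 genes were called in all. Over the 13 alternatives its log2 fold change ran from -0.78 to -0.58 and its adjusted p from 0.00191 to 0.801.

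Hoxb4 was at 1.40, 1.77 and 0.71 log2 RPKM in wt and at 0.55, 0.76 and 0.47 in het at day 3, which overlapped. Its log2 fold change was -0.79 (adjusted p = 0.455, SE 0.29). Hoxb7 was at 1.89, 2.49 and 1.99 in wt and at 1.91, 1.18 and 1.52 in het, and the fitted difference was -0.61 (adjusted p = 0.522, SE 0.26). Endoderm markers were lower in het on this day too, for 16 of 16 tested, 12 at an unadjusted p under 0.05 and none called, and their sum was 5566 to 10882 CPM in wt and 4236 to 6900 CPM in het. The caudal markers summed to 488 to 721 CPM in wt and 473 to 860 CPM in het. Epiblast and pluripotency markers moved the other way at day 3. The 4 epiblast markers summed to 144 to 188.2 CPM in wt and 188.5 to 266 CPM in het, which did not overlap, with 4 of 4 higher in het, 3 at an unadjusted p under 0.05 and none called. The 6 pluripotency markers summed to 271 to 405 CPM in wt and 384 to 537 CPM in het, which overlapped, with 5 of 6 higher in het, 2 at an unadjusted p under 0.05 and none called. The part of these 4 marker lists in the Hox values was not tested.

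The difference between genotypes in each step was tested as an interaction, on libraries that the steps and the single-day comparisons share. None of the 10 members was called in any step, and neither was any other gene (0.0% for each of the 3 steps). For day 2.5 against day 2, the het step was larger by 1.39 for Hoxb3 (unadjusted p = 0.0286, SE 0.59), by 1.60 for Hoxb4 (unadjusted p = 0.0447, SE 0.74) and by 0.99 for Hoxb1 (unadjusted p = 0.0524, SE 0.48) on the log2 scale, with an adjusted p of 0.952 for each. Over the 9 members tested the difference was above 0 for 6 and below 0 for 3, with -1.44 for Hoxb8 (SE 1.26), -0.37 for Hoxb9 (SE 0.97) and -0.01 for Hoxb2 (SE 0.55). Without het line 3 the Hoxb4 value was 3.02, and without het line 1 it was 0.97 and the Hoxb1 value 1.69.

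For day 3 against day 2.5, the het step was smaller for 8 of the 9 members tested. The differences were -0.87 for Hoxb9 (unadjusted p = 0.00762, SE 0.29), -0.80 for Hoxb8 (unadjusted p = 0.0324, SE 0.34), -1.10 for Hoxb4 (unadjusted p = 0.0215, SE 0.43) and -0.91 for Hoxb3 (unadjusted p = 0.0173, SE 0.34), with an adjusted p of 0.999 for each. For Hoxb1 the difference was 0.22 (SE 0.39). By edgeR, 4 members of the 9 tested had an unadjusted p under 0.05 in this step, where 3.85% of all tested genes did, and 2 of 9 in the step before it, where 5.13% did. DESeq2 called none in any step.

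**Figure D5:**
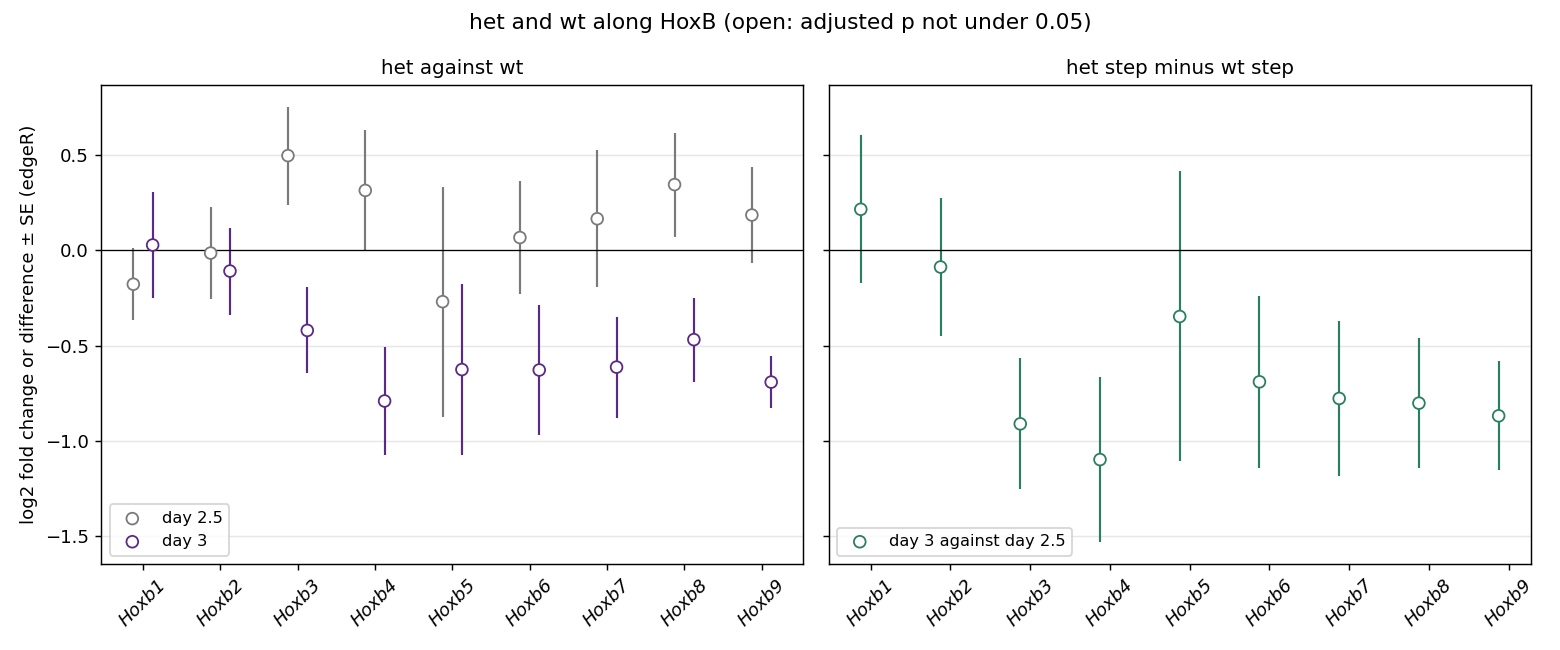
Fitted log2 fold change of het against wt at day 2.5 (grey) and day 3 (purple), and het step minus wt step from day 2.5 to day 3 (green), each with its SE (vertical axes), for the 9 genes in cluster order (horizontal axes). All points are open because no adjusted p was under 0.05, and at day 3 the values ran from 0.03 for Hoxb1 to -0.79 for Hoxb4, with Hoxb9 at -0.69.

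The other genes in and near the cluster were read from the same fits. Within 100 kb of the members, 9 other genes were listed. Of the 4201 exon bases of Hoxb3os, 953 are shared with Hoxb2 and 2250 with Hoxb3, so its counts and calls can include reads of these members. It had 30 to 38 counts in wt and 17 to 21 in het at day 2, and 178 to 398 and 399 to 475 counts at day 2.5. Its log2 fold change was 3.50 (adjusted p = 4.33e-06, SE 0.29) in wt and 4.22 (adjusted p = 6.03e-09, SE 0.22) in het. From day 2.5 to day 3 its changes of 0.66 and 0.30 did not pass (adjusted p = 0.0516 and 0.317).

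Hoxb3os had 1.06 ± 0.125 counts for each count of Hoxb2 at day 2.5 and 1.73 ± 0.0908 at day 3 in wt, and 3.80 ± 0.399 and then 2.04 ± 0.0866 for each count of Hoxb3 (SD, n = 3). In het the ratios to Hoxb2 were 1.15 ± 0.0586 and 1.59 ± 0.0889, and those to Hoxb3 were 3.02 ± 0.411 and 2.30 ± 0.314. The ratio to Hoxb2 thus went up and that to Hoxb3 went down from day 2.5 to day 3, in counts that share part of their reads.

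Hoxb5os, which spans Hoxb5 and Hoxb6 on the other strand, had 0 counts in all 6 day 0 libraries, 10, 1 and 0 counts in wt and 5, 3 and 2 in het at day 2.5, and 74, 53 and 41 in wt and 69, 27 and 57 in het at day 3. From day 2.5 to day 3 it rose by 3.57 (adjusted p = 0.0103, SE 0.76) in wt and 3.84 (adjusted p = 0.000684, SE 0.57) in het on the log2 scale, while Hoxb5 did not pass. Gm53, a non-coding RNA between Hoxb9 and Hoxb13, had 16 to 26 counts in wt at day 0, 0 to 4 at day 2, 6 to 29 at day 2.5 and 52 to 146 at day 3. It fell by 4.26 to day 2 in wt (adjusted p = 0.00836, SE 1.16) and rose by 3.99 (adjusted p = 0.0141, SE 1.08) and 2.37 (adjusted p = 0.00602, SE 0.45) in the later steps. Without wt line 1, Gm53 was at 0 counts at day 2 and at least 13.1-fold higher at day 2.5, against 3 counts over the group. In het it had 1 to 7 counts at day 0, 0 to 2 at day 2, 36 to 54 at day 2.5 and 77 to 96 at day 3. The first het step was not tested. In the next it was called higher (adjusted p = 0.000287), with a ratio of 55.3 (counting interval 15.0 to 461) over 2 counts at day 2. The ratio was 32.2 (8.61 to 271) without line 1 and 40.2 (10.8 to 337) without line 3. Without line 2 the day 2 group was at 0, and the day 2.5 level was at least 25.4-fold higher. From day 2.5 to day 3 Gm53 rose by 0.91 in het (adjusted p = 0.0264, SE 0.27). The interaction was not called in either of these steps (adjusted p = 0.967 and 0.999).

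Outside the cluster, the directly flanking RNAs Gm11535 and Gm11529 had a mean of at most 0.667 counts in any group. The nearest protein-coding genes were Ttll6 beyond Hoxb13, with a mean of at most 23.3 counts in any group, and Skap1 beyond Hoxb1, with a mean of at most 100.0. Neither was called in the step from day 2 to day 2.5, in which 8 members were called in each genotype and Ttll6 was tested in het alone. Calcoco2, a protein-coding gene beyond Ttll6 with a mean of up to 1573 counts in a group, was called lower in that step in wt. Its log2 fold change was -1.475 (adjusted p = 0.0499, SE 0.53) in wt and -0.33 (adjusted p = 0.558, SE 0.43) in het. Skap1 had log2 fold changes of 1.78 (adjusted p = 0.0921) in wt and 0.33 (adjusted p = 0.645) in het in that step. In het it rose in the steps on either side, by 3.14 from day 0 to day 2 (adjusted p = 0.00594, SE 0.87) and by 1.54 from day 2.5 to day 3 (adjusted p = 0.00319, SE 0.30). In wt its values in these steps were 1.25 (adjusted p = 0.448, SE 1.25) and 1.15 (adjusted p = 0.0606, SE 0.39), which did not pass. Ttll6 fell by 3.16 from day 0 to day 2 in wt (adjusted p = 0.0278, SE 1.08), and its het value of -2.12 did not pass (adjusted p = 0.0594, SE 0.91). From day 2.5 to day 3 it fell by 2.34 in het (adjusted p = 0.00910, SE 0.56), and its wt value of 0.82 did not pass (adjusted p = 0.541, SE 0.85).

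The other Hox clusters were counted by the same tests. From day 2 to day 2.5 in wt, 6 of 11 HoxA genes, 2 of 9 HoxC genes and 1 of 9 HoxD genes were called higher, beside 8 of 10 HoxB genes, and in het 7 of 11, 2 of 9 and 3 of 9. From day 2.5 to day 3, 2 of 11 HoxA genes, 4 of 9 HoxC genes and 3 of 9 HoxD genes were called higher in wt, beside 4 of 10 HoxB genes, and in het 3, 2 and 1, beside 3 of 10. These counts depend on which genes passed the filter, and the difference between clusters was not tested. Of all tested genes, 14.6% in wt and 21.8% in het were called higher from day 2 to day 2.5. From day 2.5 to day 3 these shares were 8.99% and 13.8%.

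Of the first paralogues, Hoxd1 stayed below Hoxb1 after the Wnt activator. Hoxd1 was at -0.61 ± 0.38 log2 RPKM at day 2, -0.01 ± 0.82 at day 2.5 and 1.00 ± 0.38 at day 3 in wt, when Hoxb1 was at -0.05 ± 0.24, 4.52 ± 0.48 and 4.28 ± 0.54 (SD, n = 3). The lines of these genes overlapped at day 2 and did not overlap at day 2.5 or day 3.

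Among the ninth paralogues, Hoxb9 had the highest mean level at day 3 in both genotypes. At day 3 it was at 3.97 ± 0.19 log2 RPKM in wt, beside -1.06 ± 0.34 for Hoxa9, -0.95 ± 0.49 for Hoxc9 and 0.35 ± 0.15 for Hoxd9 (SD, n = 3), with no overlap. In het, where Hoxb9 was at 3.30 ± 0.23, Hoxa9 was at -0.28 ± 0.13, Hoxc9 at -0.99 ± 0.22 and Hoxd9 at 1.01 ± 0.17. Among the fourth paralogues at day 3 in wt, Hoxc4 was at 1.85 ± 0.42, Hoxb4 at 1.30 ± 0.54 and Hoxd4 at 1.01 ± 0.59, each overlapping the next, and Hoxa4 was below them at -0.64 ± 0.60.

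Over all genes tested from day 2 to day 2.5, 2269 of 15540 were called higher and 2250 lower in wt. In het these were 3390 and 3573 of 15577. Of the 14 listed regulators of Hox genes, 7 were called higher and 1 lower from day 2 to day 2.5 in wt, and 8 and 1 in het. The CDX genes Cdx1, Cdx2 and Cdx4, which encode homeodomain activators of Hox genes in the caudal embryo, were among them. Cdx1 had 14, 12 and 18 counts in wt at day 2 and 5661, 1604 and 2712 counts at day 2.5. It rose by 8.26 in wt (adjusted p = 9.07e-10) and 7.74 in het (adjusted p = 9.67e-11) on the log2 scale, Cdx2 by 6.56 and 5.88, and Cdx4 by 7.52 and 5.97.

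From day 2.5 to day 3 these genes went different ways. Cdx1 fell by 1.24 in wt (adjusted p = 0.0115) and by 1.32 in het (adjusted p = 0.000641). Cdx4 rose by 1.07 in wt (adjusted p = 0.0129) and had a change of 0.38 in het that did not pass (adjusted p = 0.130). Cdx2 did not pass in either genotype. Cyp26a1, which encodes an enzyme that degrades retinoic acid, rose by 2.68 in wt and 2.18 in het from day 0 to day 2, and at day 2 it was called lower in het, with 98 to 135 counts against 361 to 503 in wt, a log2 fold change of -1.51 (adjusted p = 0.00971). Rarb, a retinoic acid receptor gene, rose by 3.90 in wt (adjusted p = 0.0100) and 1.94 in het (adjusted p = 0.0472) from day 0 to day 2 and passed in no later step. Aldh1a2, which encodes a retinoic acid synthesising enzyme, rose by 1.70 in wt (adjusted p = 0.0493) and 1.99 in het (adjusted p = 0.000814) from day 2 to day 2.5.

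Of the 9 listed cofactors of the TALE homeodomain class, which bind DNA together with Hox proteins, 1 was called higher and 3 lower from day 2 to day 2.5 in wt, and 1 and 4 in het. Of all tested genes, 14.6% were called higher in wt and 21.8% in het. Called lower were 2250 of 15540 in wt and 3573 of 15577 in het. Meis2 rose by 3.46 in wt and 3.45 in het from day 0 to day 2 on the log2 scale. From day 2 to day 2.5 it fell by 0.77 in het (adjusted p = 0.000969) and had a change of -0.47 in wt (adjusted p = 0.0777). Meis1 passed from day 0 to day 2 in wt, by 1.28 (adjusted p = 0.0478), and in no other step. No cofactor was called between het and wt on any day.

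Over the 24 libraries and 17543 genes, the genes outside HoxB whose log2 CPM was most like that of Hoxb1 were Lhpp (Pearson r = 0.978), Nkx1-2 (0.975), Sp8 (0.970), Tspan6 (0.965) and M1ap (0.965). Those most like Hoxb9 were Gm45889 (0.969), Hoxc5 (0.958), Pcdh7 (0.957), Grsf1 (0.957) and Gm28308 (0.953). The 2 sets of 5 had no gene in common. Within the cluster, Hoxb1 was also close to Hoxb3os (0.969). Hoxb9 was most like Hoxb8 (0.963) and Hoxb6 (0.959), and Hoxb1 was most like Hoxb3 (0.960) and Hoxb2 (0.955). These are descriptions over libraries that fall into days, and all genes that rose at day 2.5 share much of such a pattern.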

How the data were processed

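Poly(A) RNA was sequenced from 6 lines on 4 days. According to the study's methods and the submitters' processing notes, reads were trimmed with Trim Galore 0.4.4 and aligned with HISAT2 2.0.5 to GRCm38.p6, and genes were quantified in SeqMonk. The authors deposited raw counts per gene, and for 39 Hox genes log2 RPKM, in which reads were scaled by transcript length and library total. The kit was stranded or non-stranded, without a statement for each library. Group mean columns and a table of factors were not used, and 0 sample columns were left unmatched.

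Counts were analysed with edgeR 4.0.16 in R 4.3.3, with TMM factors, filterByExpr by group and its quasi-likelihood F-test. A gene was called where its p, adjusted by Benjamini-Hochberg over all genes tested, was under 0.05, and SE is the log2 fold change divided by the root of F. CPM was scaled with TMM factors unless stated. Groups of 3 lines were compared between neighbouring days, between genotypes, and by the interaction of both. Libraries of 1 line share its number because they are the same line, and the correlation of their deviations from the group means was -0.06 to 0.30. A wt and a het line with 1 number are different lines. Where a group was at 0, a floor of 3 counts over the group was used. Where a group held 1 to 3 counts, the ratio of summed CPM by library totals is given with an exact Clopper-Pearson 95% interval. Intervals and floors cover counting error only.

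Named genes were all 10 members, residents and direct flanks of the cluster, paralogues in groups 1, 4 and 9, chosen regulators and cofactors, and the 5 genes most alike to Hoxb1 and to Hoxb9 (log2 CPM, prior count 2). Some of these genes are not reported here. Ttll6, Skap1, Calcoco2 and the motifs were chosen after values or sequences were seen. The members and lists were chosen with earlier results of these data known. Alternatives were DESeq2 1.42.0 size factors and Wald test, library totals, no filter beyond 1 count, all 24 libraries in a fit, a replicate block, thinning to the smallest total (seed 7) and leaving out each line. Order along the cluster was also computed with Hoxb13, with a common floor and as a Pearson correlation with position. Genes were matched to GENCODE vM21. The scripts were tested on simulated data. Figures were drawn with matplotlib 3.10.9.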

Additional observations from a re-analysis of the deposited data

Results flagged for a closer look

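Hoxb3 was set apart because the lines of the genotypes were parted in opposite directions on 2 days. The mean log2 RPKM of het minus wt was -1.16 at day 2, with 3 to 27 counts in these 6 libraries, and 0.47 at day 2.5, with 42 to 179 counts. The lines were parted by 0.01 at day 2 and by 0.02 at day 2.5. The interaction of genotype with this step was 1.39 on the log2 scale (SE 0.59, unadjusted p = 0.0286) and did not pass, with an adjusted p of 0.952 by edgeR and of 0.723 to 1.00 over its 13 alternatives. Of the exon bases of Hoxb3, 52.9% are shared with Hoxb3os, whose log2 fold change between genotypes was -0.62 at day 2 and 0.13 at day 2.5.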

How the results depend on the processing

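Over 559 values of single genes under alternatives, 512 kept their direction and their side of the threshold, 20 lost a call, 15 gained one and 12 changed sign. The changed signs were all of Hoxb1 or Hoxb2, near 0. In het against wt at day 3, Hoxb1 (0.03) ran from -0.34 to 0.38 and Hoxb2 (-0.11) from -0.435 to 0.055 with single lines left out, and Hoxb2 gave 0.013 with thinned counts. Hoxb1 from day 2.5 to day 3 in het (-0.03) ran from -0.43 to 0.20 with lines left out and gave 0.004 with library totals, 0.002 without the filter and 0.073 with thinned counts. Its interaction value for that step (0.22) ran from -0.19 to 0.44 with lines left out.

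Of the counts of members called, wt day 2 against day 0 went from 1 to 2 with DESeq2, 3 in the fit of all 24 libraries and 1 to 2 with single lines left out. Over all genes, these settings called 7140 of 15521, 8259 of 17543 and 4152 to 6363 of 15744 to 15771. Het day 2 against day 0 went from 0 to 1 without the filter, 3 in the fit of all libraries and 0 to 2 with lines left out. Of all genes, 8957 of 22292, 8233 of 17543 and 6877 to 7757 of 15452 to 15533 were called there. Wt day 3 against day 2.5 gave 0 to 4 with lines left out, where 29 to 3098 of 15376 to 15569 genes were called in all. Het day 3 against day 2.5 went from 3 to 1 in the fit of all libraries and 1 to 4 with lines left out. The genes called in all were 3380 of 17543 and 2386 to 3032 of 15917 to 16014. Het against wt at day 3 went from 0 to 1 (Hoxb9) with DESeq2, without the filter and with the replicate block, where wt and het lines share only a number. The genes called in all went from 1 to 116, 274 and 100 in these settings. With the replicate block, paired by line, wt day 2.5 against day 2 gave 7 in place of 8, het 9 in place of 8, and het day 3 against day 2.5 gave 4 in place of 3. With that block 4798 of 15540, 6793 of 15577 and 4876 of 15801 genes were called in all.

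Order correlations of levels, which carry no test, moved by more than the spread of the lines with Hoxb13 included, to -0.459 and -0.285 in wt and -0.503 and -0.329 in het at day 2.5 and day 3, and as a Pearson correlation with position, to -0.672, -0.579 and -0.185 in wt at day 2, day 2.5 and day 3 and -0.557 and -0.298 in het at day 2.5 and day 3. Those of the change from day 2.5 to day 3 gave 0.301 and 0.410 with Hoxb13. With values under 3 counts set to that level, wt at day 2 gave -0.367, and the change from day 2 to day 2.5 gave -0.178 in wt and -0.389 in het, of the opposite sign. Depth limited day 0 and day 2, where most members had under 30 counts.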
